A study of Mus musculus with 2 samples.

Results

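The C-type lectin receptor genes described here are the 31 genes, of 32285 in the deposited feature lists, whose symbols follow the pattern of Clec, a number and a letter code. They were followed by cell class in single-cell RNA sequencing of mouse tumours grown from MC38 cells, an established line from a colon adenocarcinoma. There are 2 droplet libraries, 1 per group. The KD library came from an MC38 tumour sample with the genotype label Mbtps1 KD (sample name SHM), which the series text describes as a knockout. The WT library came from an MC38 tumour sample labelled Mbtps1 WT. Mbtps1 encodes site-1 protease, which cuts membrane-bound transcription factors in the Golgi apparatus. The labels used here do not name the host strain, the number of tumours pooled, how Mbtps1 was targeted, or whether the tumour cells are 1 clone.

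C-type lectin receptors are proteins with a fold that binds sugars, lipids or proteins, often with the help of calcium, and many of them sense microbes and dying cells on macrophages, monocytes, neutrophils and dendritic cells. Activating members such as Clec4e, Clec4d and Clec4n signal through the adaptor Fcer1g, and Clec5a through the adaptor Tyrobp, to the kinase Syk and on to Card9, Bcl10 and Malt1. Inhibitory members such as Clec4a2 and Clec12a carry a tail motif that recruits the phosphatases Ptpn6 and Ptpn11. Others have roles outside innate sensing, as ligands of natural killer cell receptors (Clec2d, Clec2g, Clec2i), as proteins of endothelium (Clec14a) or as secreted proteins (Clec3b, Clec11a), and Clec16a is known for its part in mitophagy.

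The values are UMIs, tags that count each captured RNA molecule a single time. The KD library had 174190399 of them, and 15111 cells were kept at a median depth of 5308. In the WT library there were 177399315, with 10990 cells kept at a median depth of 8229. Among the kept cells 45 barcodes occur in both libraries. The protocol names about 6000 loaded and 3000 targeted cells, fewer than were kept from either library. In tumour-like cells Mbtps1 was at 12.2 CPM (UMIs of the gene scaled to a fixed total of the class) in KD and 28.9 CPM in WT, a ratio of 0.424 (0.397 to 0.453). The tumour-like class was named by a low level of Xist, taken as a host gene, and by the 10 listed tumour markers. These markers summed to 2002 CPM in KD and 2160 CPM in WT in this class. Among them H19 was at 268 CPM in KD and 897 CPM in WT. The epithelial keratin Krt18 had 2 UMIs in KD and 2 UMIs in WT tumour-like cells, so this marker was nearly absent from them. With 1 library per group no difference below has a replicate check, and all 95% intervals cover counting error only. KD cells were shallower than WT cells in every named class, so CPM of class sums was compared and not counts per cell.

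Of the 31 genes, 23 had at least 50 UMIs over both libraries, 6 had 1 to 49 (Clec1b, Clec2e, Clec2f, Clec2h, Clec4b2 and Clec4g) and 2 had 0 UMIs in the kept cells (Clec3a and Clec4f). Clec4f is a Kupffer cell receptor in the mouse and Clec4g is known from liver endothelium. Macrophage and monocyte classes held 72.0% of the 112790 UMIs of the family, and 9 of the 23 genes had at least 90% of their UMIs there. On the GENCODE annotation, 23 of the 31 genes lie on chromosome 6, 3 on chromosome 8, and 1 each on chromosomes 7, 9, 11, 12 and 16. The genes Clec4n, Clec4d and Clec4e are direct neighbours, and Clec4a1, Clec4a3, Clec4a4, Clec4b1, Clec4a2 and Clec4b2 follow each other beside them. It is not stated how the counting treated reads shared between the similar genes of the Clec4a and Clec4b group. The levels of the single genes of that group are therefore uncertain. Clec1b overlaps Clec9a on the same strand, and their counts are uncertain for the same reason. Clec2g, Clec2i, Clec4g and Clec16a overlap genes on the opposite strand, and how the counting used strand is not stated.

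RefSeq promoters (250 bases before the start, GRCm38.p6) are shown for 4 genes of chromosome 6 that differ in the cells that hold their RNA, 2 with high levels in macrophages (Clec4a1, Clec12a) and 2 with high levels in neutrophils (Clec4d, Clec4e). Capitals mark matches on either strand to 5 motifs. The PU.1 type, of a factor that myeloid genes share, was searched as the letters GAGGAAG. The C/EBP type, of factors active in granulocytes and monocytes, was searched as TTGCNNAA, where N is any base. The AP-1 type, of the Fos and Jun factors, was searched as TGANTCA. The others are the composite type of PU.1 with interferon regulatory factors, given by name, and the core promoter motif TATAAA.
Clec4a1 (chr6:122921598-122921847, plus strand): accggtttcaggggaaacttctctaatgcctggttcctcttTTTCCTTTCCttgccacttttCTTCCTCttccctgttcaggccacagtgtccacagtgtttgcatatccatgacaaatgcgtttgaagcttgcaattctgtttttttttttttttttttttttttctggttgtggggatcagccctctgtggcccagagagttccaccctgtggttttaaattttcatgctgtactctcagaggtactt
Clec12a (chr6:129349994-129350243, plus strand): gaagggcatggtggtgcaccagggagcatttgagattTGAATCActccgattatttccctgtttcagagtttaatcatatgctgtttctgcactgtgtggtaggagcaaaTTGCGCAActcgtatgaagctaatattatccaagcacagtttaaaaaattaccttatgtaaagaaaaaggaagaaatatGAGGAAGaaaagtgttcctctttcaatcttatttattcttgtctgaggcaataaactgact
Clec4d (chr6:123261857-123262106, plus strand): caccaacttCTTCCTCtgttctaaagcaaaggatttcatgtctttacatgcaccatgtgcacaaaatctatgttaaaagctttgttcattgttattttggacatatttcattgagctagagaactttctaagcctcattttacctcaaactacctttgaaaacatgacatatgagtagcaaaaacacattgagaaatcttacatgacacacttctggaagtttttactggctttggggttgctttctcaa
Clec4e (chr6:123289872-123290121, minus strand): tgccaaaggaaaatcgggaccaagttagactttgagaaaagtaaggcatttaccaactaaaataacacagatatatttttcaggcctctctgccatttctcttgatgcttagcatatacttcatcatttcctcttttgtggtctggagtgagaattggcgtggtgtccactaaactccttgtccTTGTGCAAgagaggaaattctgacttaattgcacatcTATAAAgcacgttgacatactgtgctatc

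The PU.1 type letters were in 3 of the 4 windows, those of Clec4a1, Clec12a and Clec4d, and in 10.6% of the 32851 promoters of the table. Clec4e had the C/EBP type letters 66 bases and the core promoter letters 29 bases before its start, and these letters were in 9.56% and 12.4% of all promoters. Clec12a had PU.1, C/EBP and AP-1 type matches at 61, 140 and 213 bases before its start. The AP-1 type was in 6.75% of all promoters. The match of the composite type, which 2.30% of promoters hold, was in Clec4a1 and not in the other 3 windows. Of the 31 genes, 24 had a promoter in the table. The PU.1 type was in 6 of them, namely Clec4a1, Clec12a, Clec4d, Clec5a, Clec16a and Clec18a. Tumour-like cells held 61.4% of the Clec16a and 93.8% of the Clec18a UMIs, and Clec4a2, high in macrophages, had no such match. Among the 24 genes, the C/EBP type was in 4, the AP-1 type in 5, the composite type in 2 and the core promoter motif in 7. Here a gene counted if any of its promoters had a match, whereas the percentages are shares of single promoters. A match is a string of letters and not a measured binding site.

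The map of levels by class shows 4 groups of genes, in macrophages, in neutrophils and monocytes, in dendritic subsets, and outside the myeloid cells. Cells were clustered without the 31 genes, so the classes do not rest on them. Among the classes are macrophage-like cells (3397 in KD, 3346 in WT), monocyte-like cells (424 in KD, 256 in WT), neutrophil-like cells (188 in KD, 61 in WT) and dendritic subsets of 14 to 89 cells per library. A mixed macrophage and monocyte subcluster with Hbb-bs, Ly6i and Ly6c2 among its leading genes (841 cells in KD, 657 in WT) and a mixed macrophage and cDC1 subcluster led by Dnase1l3 and Cadm1 (237 in KD, 437 in WT) are kept apart. The macrophage-like class was named with the 14 listed macrophage markers, so their level there is no independent check of the name. They summed to 34226 CPM in KD and 38373 CPM in WT in macrophage-like cells, and to 262 CPM in KD and 295 CPM in WT in tumour-like cells. The listed neutrophil markers summed to 92.4 CPM in KD and 100.2 CPM in WT in macrophage-like cells.

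**Figure D1:**
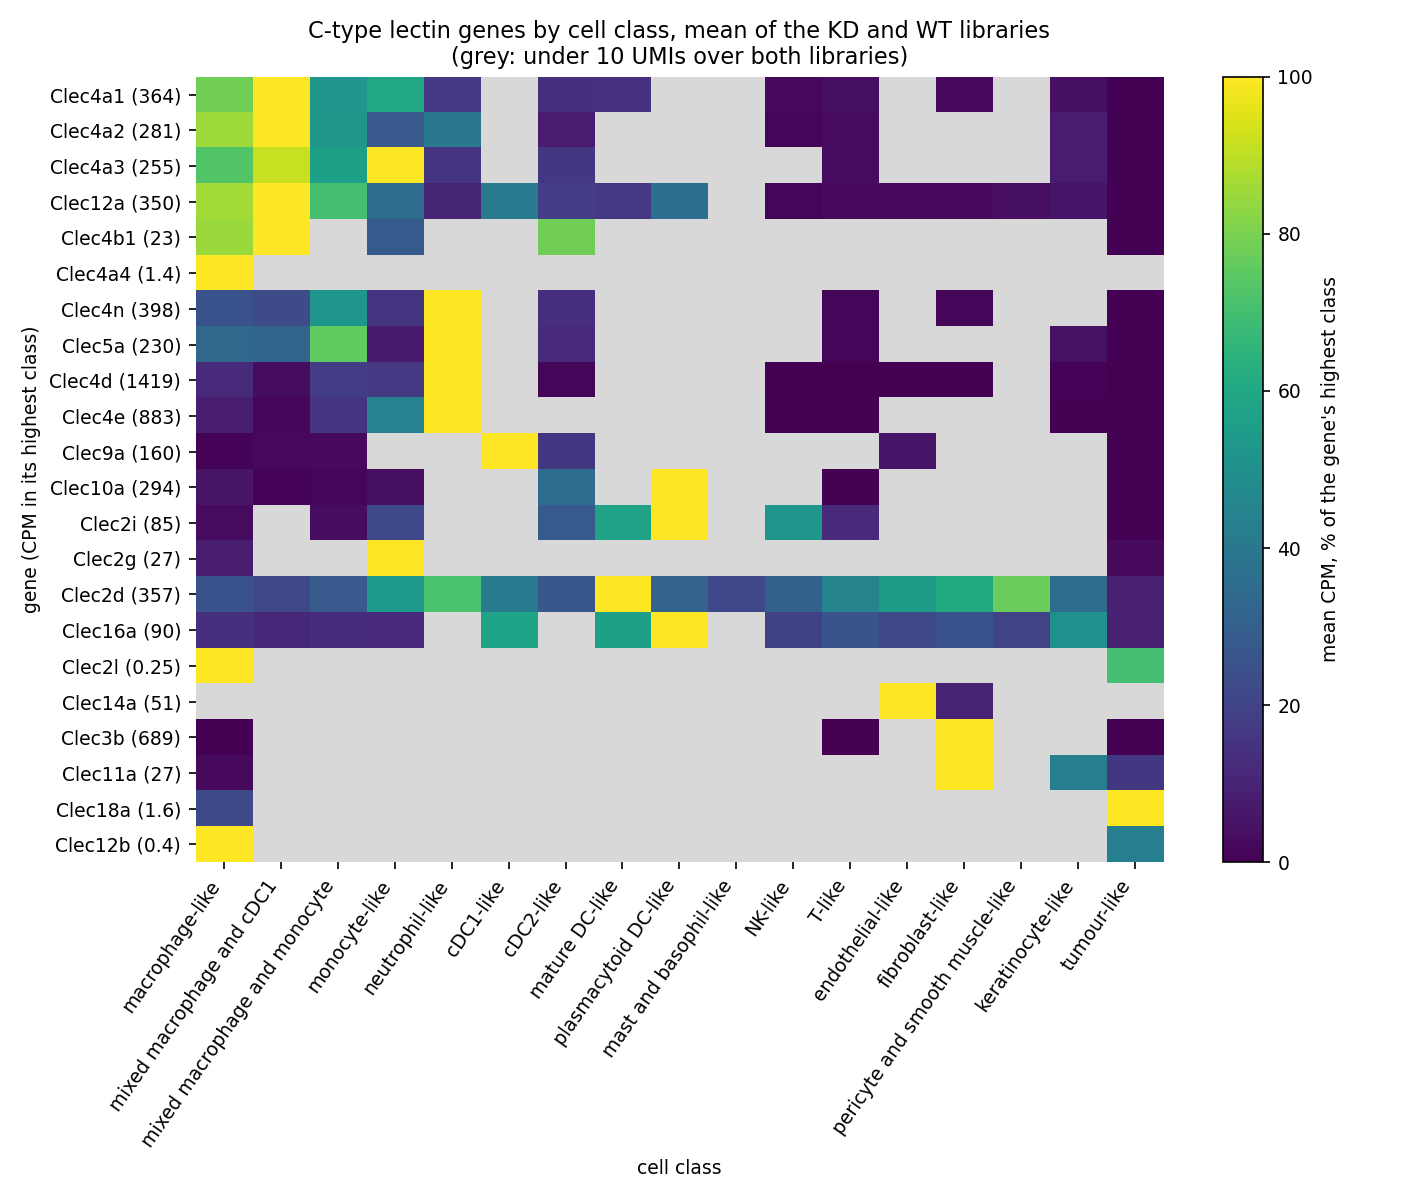
Levels of 22 of the 23 C-type lectin genes with at least 50 UMIs. Rows are genes, with the CPM of the highest class in brackets, columns are cell classes, colour is the mean CPM of KD and WT as a percentage of that highest class, and grey fields hold under 10 UMIs. Clec4a1, Clec4a2, Clec4a3 and Clec12a fill the macrophage columns, Clec4d and Clec4e peak in neutrophil-like cells, Clec9a in cDC1-like cells and Clec3b in fibroblast-like cells.

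Clec12a, an inhibitory receptor for uric acid crystals, stood at 320 CPM in KD and 282 CPM in WT macrophage-like cells. It was higher in the mixed macrophage and cDC1 subcluster, with 387 CPM in KD and 313 CPM in WT, and lower in the mixed macrophage and monocyte subcluster, with 249 CPM in KD and 245 CPM in WT. In monocyte-like cells it had 116 CPM in KD and 131 CPM in WT. Clec4a1, a member of the dendritic cell immunoreceptor family, had 311 CPM in KD and 261 CPM in WT macrophage-like cells, and 219 CPM in KD and 217 CPM in WT in monocyte-like cells. Clec4a2, the family's best known inhibitory member, had 237 CPM in KD and 243 CPM in WT in macrophage-like cells and 89.5 CPM in KD and 68.4 CPM in WT in monocyte-like cells. Its relative Clec4a3 had 195 CPM in KD and 176 CPM in WT macrophage-like cells and was higher in monocyte-like cells, with 268 CPM in KD and 242 CPM in WT. For these 4 genes, T-like cells, which are not known to use them, had 6.67 to 16.8 CPM in KD and 8.94 to 10.6 CPM in WT.

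Within macrophages, the level of these genes changed with the subcluster. Clec4a1 was highest in the subcluster led by Fcrl5 and Cd300e, with 475 CPM in KD and 395 CPM in WT, and lowest in the subcluster led by Mmp12 and Gpnmb, with 127 CPM in KD and 140 CPM in WT. Clec12a had 469 CPM in KD and 441 CPM in WT in the Fcrl5 subcluster, against 99.7 CPM in KD and 93.2 CPM in WT in the subcluster led by Retnla and Cd209f. Clec4b1, an activating relative that pairs with Fcer1g, was at 86.1 CPM in KD and 81.3 CPM in WT in the Retnla subcluster and at 41.2 CPM in KD and 51.3 CPM in WT in the Fcrl5 subcluster, but at 0.897 CPM in KD and 2.91 CPM in WT in the subcluster led by Folr2 and Mrc1. Clec10a, a receptor for galactose and N-acetylgalactosamine, was at 464 CPM in KD and 516 CPM in WT in the Retnla subcluster. In the other 7 macrophage-like subclusters it did not exceed 9.28 CPM in KD or 5.36 CPM in WT. The Retnla subcluster held 124 KD and 110 WT cells.

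Clec4d, Clec4e and Clec4n, the 3 neighbouring activating receptors, had their highest levels in neutrophil-like cells. Clec4d, known to form complexes with the Clec4e protein, was at 1323 CPM in KD and 1515 CPM in WT neutrophil-like cells, against 166 CPM in KD and 178 CPM in WT in macrophage-like cells. Clec4e, the receptor for mycobacterial cord factor and for the nuclear protein Sap130 of dead cells, was at 949 CPM in KD and 817 CPM in WT neutrophil-like cells, at 527 CPM in KD and 252 CPM in WT in monocyte-like cells and at 78.2 CPM in KD and 55.5 CPM in WT in macrophage-like cells. Clec4n, a receptor for fungal mannans, was at 396 CPM in KD and 399 CPM in WT neutrophil-like cells, and its next level was in the mixed macrophage and monocyte subcluster, with 211 CPM in KD and 207 CPM in WT. Monocyte-like cells had less Clec4n, with 83.1 CPM in KD and 40.6 CPM in WT. Clec5a, a receptor for dengue virus, was at 156 CPM in KD and 192 CPM in WT in the mixed macrophage and monocyte subcluster. All 424 KD and 256 WT monocyte-like cells together held 15 UMIs of Clec5a in KD and 16 UMIs in WT, counts and not CPM. The neutrophil-like cells were shallow, with a median of 1092.5 UMIs in KD and 1453 in WT.

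**Figure D2:**
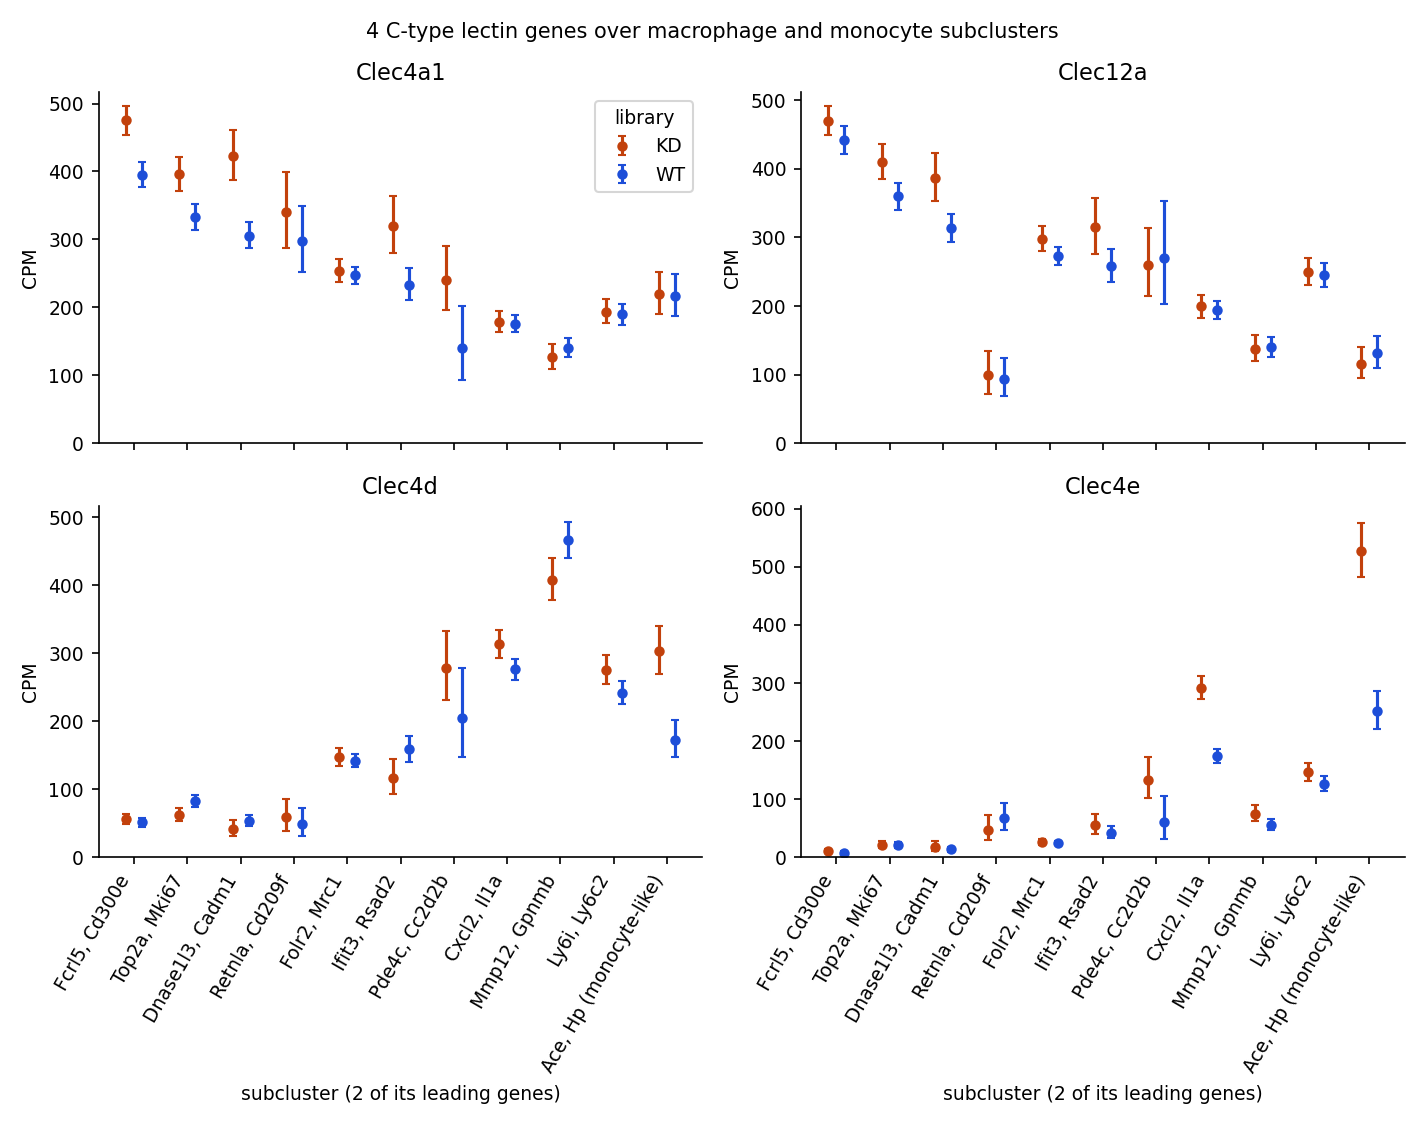
CPM of 4 C-type lectin genes in 11 macrophage and monocyte subclusters, named by 2 of their leading genes, in KD and WT with 95% Poisson intervals as bars. In the Fcrl5 subcluster Clec4a1 is at 475 CPM in KD and 395 CPM in WT, and Clec4d at 55.8 CPM in KD and 51.3 CPM in WT. In the Mmp12 subcluster Clec4a1 is at 127 CPM in KD and 140 CPM in WT, and Clec4d at 408 CPM in KD and 467 CPM in WT.

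Over the 11 macrophage and monocyte subclusters Clec4a1 and Clec4d ran in nearly opposite order. Clec4d was highest in the Mmp12 subcluster, with 408 CPM in KD and 467 CPM in WT, where Clec4a1 was lowest. Clec4e had 291 CPM in KD and 174 CPM in WT in the subcluster led by Cxcl2 and Il1a. The whole Fcrl5 subcluster, of 986 KD and 718 WT cells, held 45 Clec4e UMIs in KD and 33 in WT, which are counts and not CPM. Spearman's rho of the mean CPM was -0.973 for Clec4a1 with Clec4d, -0.973 for Clec4a2 with Clec4e, 0.864 for Clec4a1 with Clec4a3 and 0.782 for Clec4d with Clec4e. These values describe 11 subclusters that come from the same 2 libraries and differ in depth. Among all 55 pairs of the 11 genes, the genes most like Clec4e and Clec4a1 by rho were Clec4d and Clec4a3.

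In macrophage-like cells no C-type lectin gene passed 1.5-fold between KD and WT. The filter of at least 50 UMIs over both libraries and a mean of 5 CPM was passed by 12 of the 31 genes, of which 0 were past 1.5-fold in either direction, against 3.12% of 9513 genes in these cells. The median log2 ratio was 0.15 for the 12 genes and 0.04 for all genes of the same filter. Clec4e had the highest ratio, 1.41 (95% interval 1.30 to 1.52), and 7 more genes lay between 1.02 and 1.19. Clec5a had the lowest, 0.859 (0.798 to 0.925), from 70.9 CPM in KD and 82.5 CPM in WT. Clec4a2 and Clec4n were at 0.977 and 0.994, with intervals that hold 1.

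Clec4e in macrophage-like cells was near the limit and passed it in 5 alternatives. Its ratio was up to 1.64 where each cell with at least 1000 UMIs was thinned to that depth. By subcluster, the ratio was above 1 in 6 of 8, and the interval above 1 in 3. The subcluster led by Cxcl2 and Il1a had a ratio of 1.67 (1.51 to 1.84), while the Folr2 subcluster, with 25.7 CPM in KD and 24.8 CPM in WT, had a ratio of 1.04 (0.788 to 1.36). Macrophage-like cells of KD also held more RNA of the monocyte marker Ly6c2, with 112 CPM against 70.5 CPM in WT, and the sum of the 10 listed monocyte markers was 1490 CPM in KD and 1218 CPM in WT. The part of these cells in the Clec4e ratio was not tested.

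Clec4d gave different directions by subcluster. Its ratio in macrophage-like cells as a whole was 0.935 (0.890 to 0.982), with the interval above 1 in 1 and below 1 in 3 of 8 subclusters. In the Cxcl2 subcluster it was 1.14 (1.04 to 1.24), and in the Mmp12 subcluster 0.875 (0.795 to 0.963). With equal weight for each cell the ratio turned to 1.08, and its sign for the whole class changed with the weight given to cells. Clec5a had a ratio above 1 in 1 of 8 subclusters and an interval below 1 in 2, and it was also lower in the mixed macrophage and monocyte subcluster, with a ratio of 0.810 (0.711 to 0.922).

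Clec4a1 had a ratio of 1.19 (1.15 to 1.24) in macrophage-like cells, above 1 in 7 of 8 subclusters. The highest subcluster ratio was 1.71 (1.12 to 2.70), in the Pde4c subcluster of 104 KD and 34 WT cells. In the mixed macrophage and cDC1 subcluster it had 423 CPM in KD and 306 CPM in WT, a ratio of 1.38 (1.24 to 1.54). The ratio of Clec12a was 1.13 (1.09 to 1.18) in macrophage-like cells, above 1 in 6 of 8 subclusters. In the mixed macrophage and monocyte subcluster both genes were level, with ratios of 1.02 and 1.02 whose intervals hold 1. There 10 of the 31 genes passed the filter and 0 were past 1.5-fold, against 7.77% of 7736 genes. In the mixed macrophage and cDC1 subcluster 10 passed and 0 were past it, against 9.22% of 7437 genes.

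**Figure D3:**
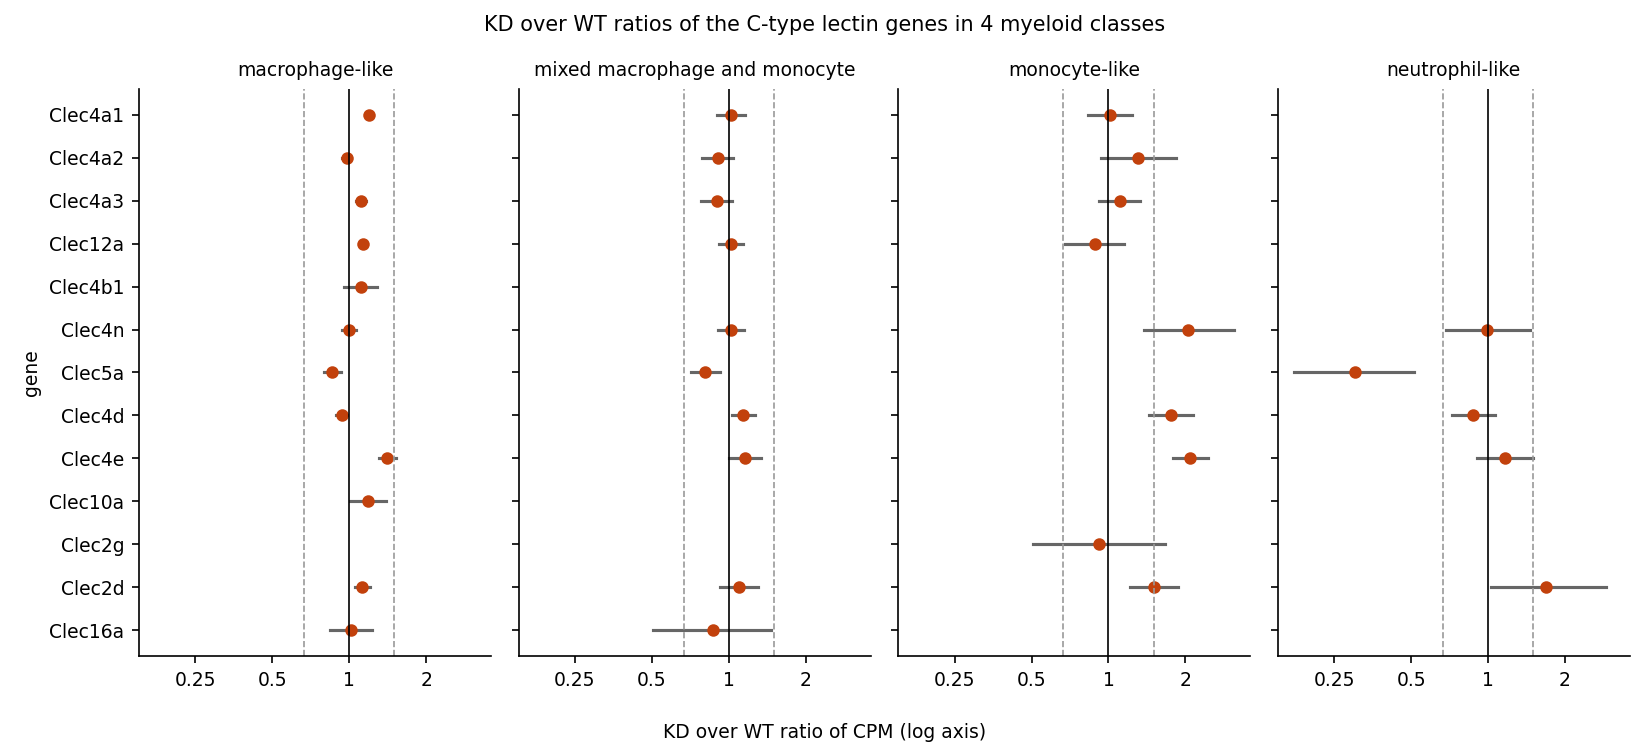
KD over WT ratios of CPM on a log axis, with 95% intervals for counting error, for the genes that passed the filter in 4 myeloid classes. Dashed lines mark 1.5-fold in either direction. In monocyte-like cells Clec4e (2.09), Clec4n (2.05) and Clec4d (1.75) lie past the upper line, whereas in macrophage-like cells the ratios run between 0.859 and 1.41.

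In monocyte-like cells the neighbours Clec4e, Clec4n and Clec4d were past the limit. Of the 31 genes 9 passed the filter, and 4 were higher in KD past 1.5-fold and 0 lower, against 6.86% higher and 7.28% lower of 4737 genes. Clec4e had 495 UMIs in KD and 236 in WT, a ratio of 2.09 (1.79 to 2.45). Its neighbours Clec4n and Clec4d had ratios of 2.05 (1.37 to 3.10) and 1.75 (1.44 to 2.14). Clec2d, the ligand of inhibitory natural killer receptors of the Klrb1 group, was at the limit with 231 CPM in KD and 154 CPM in WT, and fell under it in 8 of 12 alternatives (interval of the ratio 1.21 to 1.87). Clec4a1, Clec4a3, Clec4a2 and Clec12a were not past the limit, with ratios of 1.01, 1.11, 1.31 and 0.884 in that order, and all 4 intervals hold 1.

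The share of monocyte-like cells with a Clec4e UMI was taken after thinning each cell with at least 1000 UMIs to that depth. It was 33.6% in KD (133 of 396 cells, 95% Clopper-Pearson interval 28.9 to 38.5%) and 23.4% in WT (58 of 248 cells, 18.3 to 29.2%). In T-like cells, where no Clec4e is expected, the share was 0.457% in KD and 0.642% in WT at the same depth. Without thinning the share was 45.8% in KD and 40.6% in WT, at median depths of 2098.5 and 3526.5 UMIs. For Clec4d the thinned share was 21.7% in KD and 11.3% in WT. For Clec4n it was 3.54% in KD (14 of 396 cells, 1.95 to 5.86%) and 4.03% in WT (10 of 248 cells, 1.95 to 7.29%), so the higher Clec4n CPM of KD was not seen in the share of cells. Without the top cell of each library, Clec4n in monocyte-like cells was at 69.2 CPM in KD and 37.4 CPM in WT, a ratio of 1.85.

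**Figure D4:**
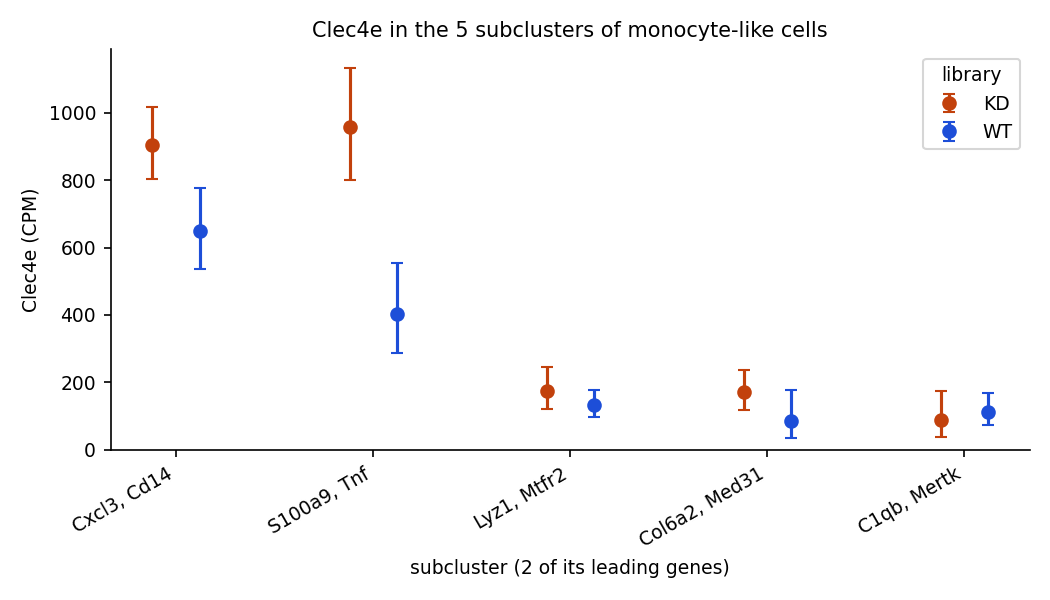
CPM of Clec4e in the 5 subclusters of monocyte-like cells, named by 2 of their leading genes, in KD and WT with 95% Poisson intervals as bars. The Cxcl3 and Cd14 subcluster (905 CPM in KD, 648 CPM in WT) and the S100a9 and Tnf subcluster (956 CPM in KD, 404 CPM in WT) lie above the other 3.

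Clec4e was uneven among the monocyte-like cells. The subcluster led by Cxcl3 and Cd14 held 127 of 424 KD and 50 of 256 WT monocyte-like cells, and had 905 CPM of Clec4e in KD and 648 CPM in WT, a ratio of 1.40 (1.12 to 1.75). A subcluster led by S100a9 and Tnf, with 561 CPM of the patrolling monocyte gene Ace in KD and 468 CPM in WT, had 956 CPM of Clec4e in KD and 404 CPM in WT, a ratio of 2.37 (1.64 to 3.49). In the 3 others Clec4e was at 88.5 to 175 CPM in KD and 85.6 to 134 CPM in WT, with intervals that hold 1. In the Cxcl3 subcluster Clec4d had a ratio of 1.17 (0.910 to 1.51) and Clec4n of 1.18 (0.685 to 2.09). The S100a9 subcluster had 1.10 (0.644 to 1.91) for Clec4d. Its Clec4n ratio of 3.55 (1.20 to 14.2) came from 21 UMIs in KD and 4 in WT. Clec4d was at 1.88 (1.12 to 3.16) in the subcluster led by Lyz1 and Mtfr2. With the 5 subclusters at equal weight, an alternative chosen after the values were seen, the ratio was 1.66 for Clec4e and 1.73 for Clec4n, and 2 genes were past 1.5-fold. Clec4d fell under the limit, to 1.24 there and to 1.42 with clusters at resolution 2.

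Other cell types were checked beside these results. The 10 listed neutrophil markers summed to 229 CPM in KD and 230 CPM in WT monocyte-like cells, with Csf3r, which monocytes also use, at 136 CPM in KD and 146 CPM in WT. Ly6g was at 0 UMIs in both, and Retnlg had 10 UMIs in KD and 0 in WT. S100a8 had 17 UMIs in KD and 12 in WT. S100a9 went the other way, with 5 UMIs in KD and 18 in WT, a ratio of 0.277 (0.0804 to 0.774). The 14 macrophage markers summed to 3558 CPM in KD and 5398 CPM in WT, and C1qa had 197 CPM in KD and 281 CPM in WT. The monocyte gene Ccr2 had 245 CPM in KD and 403 CPM in WT. A sum of 10 immediate-early and heat shock genes, which handling of tissue can induce, was 6148 CPM in KD and 8503 CPM in WT, with 3 of the genes higher and 7 lower in KD. The part of these differences in the Clec4e ratio was not tested.

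In neutrophil-like cells 5 of the 31 genes passed the filter, and 1 was higher and 1 lower past 1.5-fold, against 12.7% and 14.7% of 1105 genes. Both shares of the members rest on 1 gene. Clec5a had 24 UMIs in KD and 39 in WT, or 107 CPM in KD and 354 CPM in WT, a ratio of 0.302 (0.174 to 0.515). Over 11 alternatives this ratio ran from 0.0930, with at least 2000 UMIs per cell, to 0.491, with cells thinned to 1000 UMIs. Both settings leave out shallower cells, and thinning left out 78 of the 188 KD cells. The macrophage markers in the same cells summed to 3768 CPM in KD and 8457 CPM in WT, and their part in the ratio was not tested. Clec2d had 321 CPM in KD and 191 CPM in WT, a ratio of 1.68 (1.02 to 2.88), which fell under the limit in 2 of 11 alternatives (lowest 1.39). Clec4d, Clec4e and Clec4n had ratios of 0.873, 1.16 and 0.993 with intervals that hold 1, and over the alternatives the ratio of Clec4e ran from 0.610 to 1.22.

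The dendritic subsets were small, and their lectin genes differed. Clec9a, the receptor for actin filaments of dead cells on cross-presenting dendritic cells, was at 169 CPM in KD and 150 CPM in WT cDC1-like cells, from 9 UMIs of 16 cells in KD and 31 UMIs of 25 cells in WT. Summed over the far larger tumour-like class lay 42.8% of all Clec9a UMIs. In cDC2-like cells it had 18.8 CPM in KD and 33.0 CPM in WT. Clec10a was at 361 CPM in KD and 226 CPM in WT in plasmacytoid DC-like cells, from 14 UMIs in KD and 22 UMIs in WT, and at 124 CPM in KD and 81.0 CPM in WT in cDC2-like cells. Clec12a was found in cDC1-like cells at 132 CPM in KD and 155 CPM in WT. Mature DC-like cells, which had Ccr7 at 2686 CPM in KD and 1940 CPM in WT, had Clec2d at 355 CPM in KD and 358 CPM in WT, and their summed Clec4d, Clec4e and Clec4n were 1 UMI in KD and 7 in WT.

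Only cDC2-like cells had the 50 cells per library set for a comparison. There 2 of the 31 genes passed the filter, and Clec10a was past 1.5-fold (ratio 1.53, interval 0.894 to 2.65), against 6.03% of 1709 genes higher and 7.84% lower. Its interval holds 1, and Clec2d had 0.802 (0.454 to 1.39). For Clec9a in cDC1-like cells, 40 UMIs do not allow a difference to be seen (ratio 1.13, interval 0.473 to 2.43).

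Genes with RNA outside the myeloid cells differed in the classes that held it. Clec3b, which encodes the plasminogen-binding protein tetranectin, was at 768 CPM in KD and 610 CPM in WT fibroblast-like cells, which held 88.4% of its UMIs, and its ratio there was 1.26 (1.14 to 1.39). Clec14a, an endothelial receptor for Mmrn2, was at 57.3 CPM in KD and 44.2 CPM in WT endothelial-like cells, which held 76.1% of its UMIs. Clec2i, another ligand of natural killer receptors, was at 43.7 CPM in KD and 45.8 CPM in WT NK-like cells, which held 31.6% of its UMIs. Macrophage and monocyte classes together held 35.2% of them. The mean CPM of Clec2i over both libraries was highest in plasmacytoid DC-like cells (84.9, from 14 KD and 22 WT cells), followed by mature DC-like cells (48.8). Clec2d was present in every class, from 31.2 CPM in KD and 33.4 CPM in WT in tumour-like cells to the mature DC-like level above. Clec11a, a secreted growth factor of bone, was at 25.4 CPM in KD and 28.1 CPM in WT in fibroblast-like cells, while 87.1% of its UMIs lay in tumour-like cells at 3.42 CPM in KD and 5.29 CPM in WT.

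The remaining genes were scarce or spread out. Clec2g, like Clec2i a ligand of a natural killer receptor, was at 25.6 CPM in KD and 27.8 CPM in WT monocyte-like cells. Tumour-like cells held 46.7% of its UMIs, at a level under the filter. Its ratio there was above 1 in 3 of the 4 clusters with at least 20 UMIs, with the interval above 1 in 2. The highest of these was 6.66 (2.10 to 33.8), from 36 UMIs in KD and 3 in WT. Clec16a was at 12.4 CPM in KD and 12.2 CPM in WT macrophage-like cells. Over all kept cells Clec4a4 had 34 UMIs in KD and 44 in WT, Clec2l had 30 in KD and 33 in WT, and Clec12b had 38 in KD and 17 in WT. Of the 6 genes with fewer, Clec1b, the podoplanin receptor of platelets, had 12 UMIs in KD and 34 in WT, and Clec2e had 14 in KD and 24 in WT. Clec2h had 14 in KD and 3 in WT, and the pseudogene Clec2f had 1 in KD and 7 in WT. Clec4g had 4 in KD and 1 in WT, and Clec4b2 had 2 in KD and 1 in WT.

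In fibroblast-like cells 4 genes passed the filter and 0 were past 1.5-fold, against 12.7% of 6774 genes, and in NK-like cells 3 passed and 0 were past it, against 12.3% of 6376 genes. In endothelial-like cells, where 9.82% of 4758 genes were higher and 6.87% lower past that limit, Clec2d (219 CPM in KD, 173 CPM in WT, ratio 1.26) and Clec14a (57.3 CPM in KD, 44.2 CPM in WT, ratio 1.30) stayed within it. In keratinocyte-like cells 2 passed and Clec2d was higher (154 CPM in KD, 98.6 CPM in WT, ratio 1.56, interval 1.15 to 2.12), against 10.3% of 6233 genes higher and 11.2% lower. Of the 4 that passed in T-like cells, Clec4a1 was higher (16.8 CPM in KD, 10.6 CPM in WT, ratio 1.59, interval 0.930 to 2.82, which holds 1), against 6.95% of 8327 genes higher and 3.93% lower, at a level far under that of macrophages.

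In tumour-like cells 3.19% of 9821 genes were higher and 2.56% lower past 1.5-fold, and Clec2d and Clec16a stayed within that limit. Clec2d, with 31.2 CPM in KD and 33.4 CPM in WT, had a ratio of 0.935 (0.890 to 0.981) in the class sum, but a ratio above 1 in 6 of 7 clusters, with the interval above 1 in 2 and below 1 in 1. The libraries lay in different clusters, with 933 KD and 2027 WT cells in the 2 clusters with Mfap4 among the leading genes and 6102 KD and 2428 WT cells in the other 5. With clusters at equal weight the Clec2d ratio was 1.06. Clec16a, with 8.52 CPM in KD and 8.02 CPM in WT, had a ratio of 1.06. Of the genes under the filter, Clec18a had 224 UMIs in KD and 110 in WT, with 110 of the KD UMIs in 1 cluster, and Clec11a had 345 in KD and 548 in WT.

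The pathway around these receptors was read from 4 lists. The 20 adaptors and kinases all passed the filter in macrophage-like cells and 0 were past 1.5-fold, against 3.12% of all genes there, with a median log2 ratio of -0.04, against 0.04 for all genes. The shared adaptors Fcer1g (3698 CPM in KD, 3807 CPM in WT, ratio 0.971) and Tyrobp (2167 CPM in KD and 2106 CPM in WT, 1.03) were the highest of them. Their ratios ran from 0.817 for Card9 (5.69 CPM in KD and 6.96 CPM in WT) to 1.30 for the phosphatase Ptpn11 (33.4 CPM in KD and 25.7 CPM in WT). In monocyte-like cells 18 passed and 1 was lower past 1.5-fold, the lipid phosphatase Inpp5d, with 166 CPM in KD and 255 CPM in WT, while 7.28% of all genes were lower there.

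Genes that this pathway induces, which many other signals induce as well, gave a higher median. Of the 16 listed, 11 passed in macrophage-like cells and 3 were higher past 1.5-fold and 0 lower, against 3.12% of all genes past it in either direction, with a median log2 ratio of 0.40, against 0.04 for all genes. They were Cxcl2 (907 CPM in KD, 517 CPM in WT, ratio 1.75), Cxcl1 (42.7 CPM in KD and 26.2 CPM in WT, 1.63), both chemokines for neutrophils, and the transcription factor Egr1 (94.4 CPM in KD and 38.5 CPM in WT, 2.45), which handling of tissue can also induce. The second highest gene of the list, Il1b, had 438 CPM in KD and 356 CPM in WT (1.23), and Nfatc1 the lowest ratio (33.3 CPM in KD and 34.7 CPM in WT, 0.960). In monocyte-like cells 8 passed and 5 were higher past 1.5-fold, against 6.86% of all genes, among them Tnf (179 CPM in KD and 59.8 CPM in WT, 2.99) and Ptgs2 (357 CPM in KD and 157 CPM in WT, 2.27). A higher median was not confined to these cells. It was 0.98 in fibroblast-like, 0.90 in keratinocyte-like and 0.32 in tumour-like cells, against -0.07, -0.02 and 0.04 for all genes. In the mixed macrophage and cDC1 subcluster it was 0.02, against 0.05 for all genes, and in endothelial-like cells -0.006, against 0.06. The 10 immediate-early and heat shock genes used above, Egr1 among them, summed to 3654 CPM in KD and 3767 CPM in WT macrophage-like cells. Of them 5 were higher and 5 lower in KD. The part of handling in the Egr1 ratio was not tested.

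Of 19 other genes with the C-type lectin fold, 7 passed in macrophage-like cells and 2 were higher past 1.5-fold, against 3.12% of all genes in either direction. These were Cd209g (7.31 CPM in KD, 4.33 CPM in WT, ratio 1.69) and the Clec10a neighbour Mgl2 (240 UMIs in KD, 220 UMIs in WT, ratio 1.61). The mannose receptor Mrc1 had 256 CPM in KD and 275 CPM in WT (0.933, the lowest of the list), and Cd302 98.0 CPM in KD and 94.4 CPM in WT (1.04). Of 13 genes of known protein ligands, 9 passed and 0 were past 1.5-fold, against the same 3.12%. The highest were Actb (11518 CPM in KD and 9969 CPM in WT, 1.16) and Actg1 (1828 CPM in KD and 1859 CPM in WT, 0.983), and the ratios ran from 0.883 for Anxa1 (157 CPM in KD and 177 CPM in WT) to 1.20 for Anxa5 (499 CPM in KD and 414 CPM in WT).

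Summed over all kept cells, Clec5a was at a ratio of 0.643 (0.606 to 0.682) and Clec4a2 at 0.729, while Clec4e was at 1.25. Clec5a was lower past 1.5-fold there, against 2.98% of 10525 genes higher and 2.50% lower. Macrophage-like cells were 22.5% of KD and 30.4% of WT kept cells, and tumour-like cells 46.6% of KD and 40.5% of WT ones, so a sum over all cells mixes class shares with levels within classes.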

How the data were processed

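The deposited files hold raw UMI counts per gene and barcode, with no filter for cells, which the authors made with Cell Ranger 4, per the file headers. The sources used here name neither the genome build nor the gene models. Likewise not stated is how reads shared by similar or overlapping genes were assigned. Each group has 1 library, so the values have no replicate error.

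Barcodes with at least 500 UMIs, 250 genes and at most 20% mitochondrial UMIs were kept if they counted as cells. Those with at least 3000 UMIs were taken as cells without a test. For those under 3000, a Dirichlet-multinomial test had to set them apart from empty droplets (at most 100 UMIs, false discovery rate 0.01, 1000 draws). Simulated-neighbour scores marked 902 doublets in KD and 480 in WT, which were left out. Cells were clustered with scanpy 1.11.5 and leidenalg 0.10.2 in Python 3.11.15 (2000 variable genes without the C-type lectin genes, 30 principal components, 15 neighbours, resolution 1). Clusters were named from lists of marker genes where at least 3 markers were detected, and rebuilt names can differ from the authors' own. The tumour-like name also required a low level of Xist, taken as a host gene absent in the tumour.

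For each class of a library, a gene's UMIs were added up and scaled by the class total, giving CPM. Intervals are exact at 95%: Poisson for CPM, conditional on the summed UMIs for ratios, and Clopper-Pearson for shares. Ratios are described for genes with at least 50 UMIs over both libraries and a mean of 5 CPM, and 1.5-fold is a limit of size, not a test. For shares, each cell with at least 1000 UMIs was thinned to that depth, and shallower cells were left out. The same holds for ratios with thinned cells. The interval script was tested on simulated data. Pathway lists name the 2 most abundant genes and those with the highest and lowest ratio in macrophage-like cells, and others named were chosen after their values were seen. The genes, lists and markers were chosen with earlier results of these data known. Gene neighbours come from GENCODE vM21, and promoters from RefSeq. The results of 1 of the genes are not reported here.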

Additional observations from a re-analysis of the deposited data

Results flagged for a closer look

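Clec4d had a KD over WT ratio of 1.75 in monocyte-like cells and of 0.935 in macrophage-like cells, with intervals on opposite sides of 1. The monocyte-like ratio was 1.24 with subclusters at equal weight, and the macrophage-like ratio was above 1 in 4 alternatives, at up to 1.08. Clec2d had a ratio of 1.68 in neutrophil-like cells and of 0.935 in tumour-like cells, also on opposite sides of 1. The neutrophil-like ratio was 1.39 with at least 2000 UMIs per cell, and the tumour-like ratio turned to 1.06 with clusters at equal weight and was above 1 in 6 of 7 clusters. The difference between the classes was not tested in either case, since each group has 1 library.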

How the results depend on the processing

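No paired analysis was possible because each group has 1 library. Over 39 ratios of single genes and 465 alternative values, 418 stayed on the same side of 1 and 47 crossed it. Of these, 40 belong to ratios whose counting interval holds 1, and 7 to ratios whose interval does not, given next. In all 36 values lay outside the interval. In macrophage-like cells Clec4d turned to 1.07 with thinned cells, 1.08 with cells at equal weight, 1.01 with subclusters at equal weight and 1.004 with the mixed subclusters joined, the last an alternative chosen after seeing the data. Clec2d turned to 0.997 with thinned cells and Clec10a to 0.934 with subclusters at equal weight, and in tumour-like cells Clec2d turned to 1.06 with clusters at equal weight.

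The count of 0 genes past 1.5-fold in macrophage-like cells was 1 with thinned cells, cells or subclusters at equal weight, doublets kept, C-type lectin genes in the clustering, or another seed, and 6 with no minimum beyond 1 UMI in each library. The count of 4 in monocyte-like cells was 2 with thinned cells, 5 subclusters at equal weight, resolution 2 or a limit of 2-fold, and 7 with no minimum. With thinned cells Clec4n kept a ratio past 1.5-fold, as in all 12 of its alternatives, but no longer passed the filter on UMIs and CPM. Of the pathway lists in macrophage-like cells, other lectin-fold genes went to 1 with thinned cells and 0 with cells at equal weight or mixed subclusters joined, and induced genes to 5 with another seed. The Clec4e share of monocyte-like cells was 17.9% in KD and 10.5% in WT thinned to 500 UMIs, and 45.8% and 40.6% unthinned. Over all alternatives Clec4e in monocyte-like cells ran from 1.66 to 2.38 and Clec4d from 1.24 to 2.05. The cause of these changes was not tested. The number of cells limits the dendritic subsets, with 14 to 89 cells per library, and depth the neutrophil-like cells, with a median of 1092.5 UMIs in KD and 1453 in WT.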
